A study of Sus scrofa with 75 samples.

Results

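Single-exon protein-coding genes carry their whole coding sequence in 1 uninterrupted stretch of the genome. They were taken from the assembled annotation as the gene identifiers with a coding line and with 1 exon in every transcript, outside the mitochondrial genome. This gave 2495 of 35936 gene identifiers, or 11.2% of the protein-coding genes outside the mitochondrial genome, and 2468 of the 2495 were listed in the gene expression table. The other protein-coding genes outside the mitochondrial genome, 19871 multi-exon genes, served for comparison.

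Most mammalian messenger RNAs are made by cutting introns out of a longer transcript, and single-exon genes skip that step. The class holds large families of G protein-coupled receptors, among them the olfactory receptors, and also type I interferons, most histones and many transcription factors that respond quickly to a stimulus. Other single-exon genes are retrocopies, which arise when a spliced messenger RNA is copied back into the genome and so lack the introns of the gene they came from.

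RNA was taken from heart, kidney, liver, lung and spleen of adult male pigs, all 12 months old. The titles carry codes for the pig groups whose meaning the labels do not give. Illumina libraries of 4 animals coded BS and 4 coded DSE, each with 5 tissues, gave the 40 libraries used here, and 1 PacBio library per pig group and tissue gave another 10. All animals were males of 1 age, RNA was prepared with Trizol and acid phenol throughout, and ribosomal RNA was removed from the Illumina libraries only. Levels are in TPM, a share of the RNA of a library scaled by transcript length, with a sum of 1000000 in every library, so the number of reads behind a value is unknown. Nothing in the labels describes treatments or litters, and p-values measure the spread between these animals.

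The tissues matched their labels by defining markers. The summed TPM of MYL2, TNNT2, MYH7 and MYL3, genes of heart muscle, was at least 28288 in every heart and at most 176 elsewhere, where the value of 176 came from 1 BS liver. The summed TPM of the surfactant genes and AGER was 19143 to 65922 in lung. The share of TPM on genes of the mitochondrial genome was 33.9% to 36.1% in BS hearts and 38.3% to 46.0% in DSE hearts, with no overlap. In liver it was 7.37% to 10.1% in BS and 10.5% in every DSE animal, and in kidney, lung and spleen the groups overlapped. In whole tissue, fewer cells of a type and less RNA per cell cannot be told apart.

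The single-exon genes were short and often without a name. Their median coding length was 933 bases (quartiles 457.5 and 954), against 1248 bases in multi-exon genes. Only 23.7% carried a symbol, against 77.0% of multi-exon genes, and 27.3% had an annotated untranslated region, against 90.1%. They lay close together, with 50.7% of them within 50000 bases of another single-exon gene, and chromosomes 2 and 9 held 291 and 249 of them. On chromosome 9 they made up 19.3% of the coding genes. A total of 316 overlapped another gene, and 268 lay wholly inside one, 55 on the same strand and 213 on the opposite strand.

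Long reads bore on the choice of genes. None of the 34778 transcripts added from long reads had a single exon, so by the rule none could belong to a single-exon gene. The rule therefore left out 18 coding genes that have 1 exon in the reference transcripts but gained a spliced long-read transcript. They include ANG, an RNase of the blood vessel growth response, with 323 full-length reads, CCR2, a chemokine receptor, with 140, and FEN1, a nuclease of DNA replication, with 27. ZBED6, a repressor of IGF2, was left out on a transcript with 0 full-length reads in these libraries.

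Few single-exon genes were expressed in the 5 organs. Of the 2468 listed genes, 981 (39.7%) were listed at 0 in all 40 libraries, against 5.92% of multi-exon genes. In 411 (16.7%) the mean of some tissue was 1 TPM or above, against 75.8% of multi-exon genes, and these 411 are called expressed below. Among the expressed genes 104 (25.3%) reached this level in 1 tissue and 156 (38.0%) in all 5, against 10.1% and 64.7% of expressed multi-exon genes. The expressed share differed by name and position: it was 43.5% of the 591 with a symbol, 8.20% of the 1877 without, 6.46% of those on unplaced scaffolds and 1.38% of the 939 unnamed genes with a coding length of 900 to 1000 bases. The tissue of the highest mean was lung for 157 of the 411 (38.2%, against 36.8% of expressed multi-exon genes) and spleen for 108 (26.3%, against 24.7%). Kidney followed with 95 (23.1%, against 23.2%), heart with 26 (6.33%, against 8.08%) and liver with 25 (6.08%, against 7.19%). These shares were near those of multi-exon genes.

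**Figure D1:**
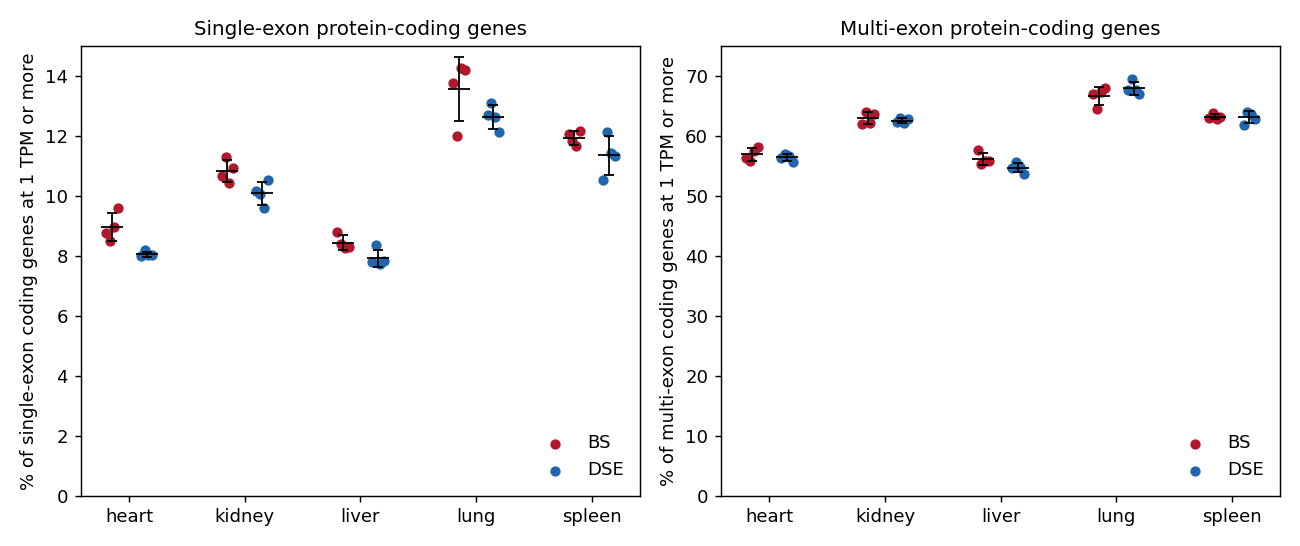
Share of genes with at least 1 TPM in each library, for single-exon coding genes (left, axis from 0 to 15%) and multi-exon coding genes (right, axis from 0 to 75%), by tissue. Points are libraries of 4 BS (red) and 4 DSE (blue) animals, and bars show the mean and SD. Lung stands highest in both classes, at a mean of 13.1% of single-exon and 67.3% of multi-exon genes.

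The number of single-exon genes with at least 1 TPM in a library was lowest in liver and highest in lung. It was 191 to 217 in liver (mean 202 ± 9.1, SD, n = 8) and 197 to 237 in heart (210 ± 14). It was 237 to 279 in kidney (258 ± 13), 260 to 300 in spleen (287 ± 13) and 296 to 352 in lung (323 ± 22). Liver and heart overlapped in these counts, and so did lung and spleen, whereas every kidney had more than every liver. The share was 8.18% of the single-exon genes in liver and 13.1% in lung, where multi-exon genes reached 55.4% and 67.3%. Hearts of BS animals had 210 to 237 such genes and hearts of DSE animals 197 to 202, with no overlap. The mitochondrial share given above also separated these hearts, and with mitochondrial genes taken out the counts overlapped, at 233 to 267 in BS and 229 to 238 in DSE.

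Families for odour, taste, hair and skin had no gene at a tissue mean of 1 TPM, and the share that reached it in other families differed widely. None of the 103 olfactory receptors reached a mean of 1 TPM in a tissue, 62 of them were at 0 in every library, and the highest tissue mean was 0.270 TPM (OR6C2 in lung). None of the 11 bitter taste and vomeronasal receptors did either, with a highest mean of 0.424 TPM (TAS2R40 in liver). The 13 genes of hair keratin-associated and cornified envelope proteins, which build hair and skin, had 11 members at 0 throughout. Type I interferons, the antiviral cytokines, reached 1 TPM in 8 of 23 cases, and the highest was IFN-OMEGA-7 in lung, at 2.77 ± 1.09 TPM (SD, n = 8). IFN-OMEGA-7 lies inside another gene on the opposite strand, and the interferon copies are alike in sequence, so these low values are uncertain.

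**Figure D2:**
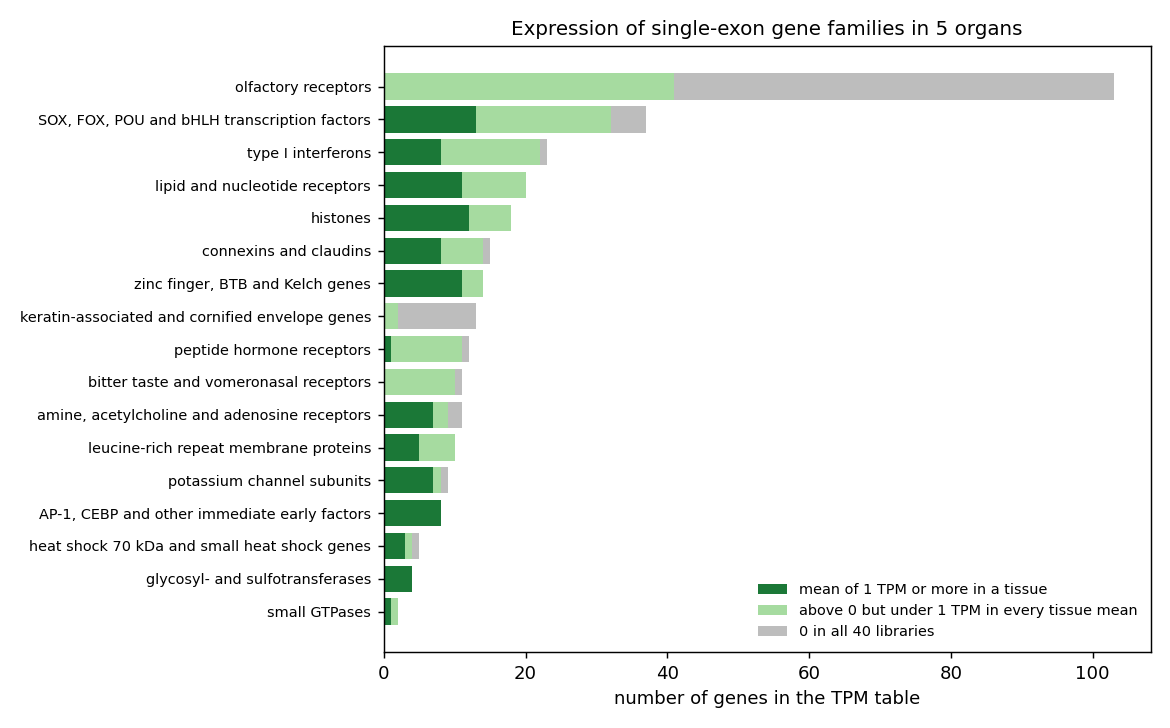
Number of single-exon genes of each family in the expression table, split by level: a mean of at least 1 TPM in a tissue (dark green), above 0 but under 1 TPM in every tissue mean (light green) and 0 in all 40 libraries (grey). None of the 103 olfactory receptors is dark green, while all 8 genes of the AP-1, CEBP and immediate early group are.

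Of the 11 receptors for amines, acetylcholine and adenosine, 7 reached 1 TPM, and none was tissue-enriched by the rule used here. ADRB1, the beta-1 adrenergic receptor that drives heart rate, averaged 46.6 ± 12.5 TPM in spleen (SD, n = 8) and 19.9 ± 6.93 TPM in heart. Every spleen (37.9 to 76.7) was above every heart (12.8 to 28.7), and lung followed at 7.67 to 17.2, so ADRB1 was not highest in the heart. ADRA2C, an alpha-2 adrenergic receptor, was highest in heart at 17.2 ± 9.51 TPM. HTR1B, a serotonin receptor, averaged 12.1 ± 5.19 TPM in kidney and 11.4 ± 5.90 in lung, which do not differ beyond their spread.

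Of the 20 receptors for lipids and nucleotides or with unknown ligands, 11 were expressed and none was at 0 throughout. LPAR6, a receptor for lysophosphatidic acid, led them in spleen with 54.9 ± 20.5 TPM (SD, n = 8). It lies in an intron of RB1 on the opposite strand, and reads of RB1 could be counted to it. S1PR4, a sphingosine phosphate receptor of blood cells, had 7.76, 9.51 and 13.2 TPM (lowest, median and highest) in spleen. Of 12 receptors for peptide hormones only APLNR, the apelin receptor, reached 1 TPM.

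Among transcription factors, all 8 members of the AP-1, CEBP and immediate early group were expressed, and 13 of 37 SOX, FOX, POU and bHLH factors. CEBPB, a factor of inflammatory and metabolic genes, was the highest, at 440 ± 166 TPM in lung (SD, n = 8) and 151 ± 65.5 in liver. CEBPD, a related factor, followed at 363 ± 162 TPM in lung and 227 ± 134 in liver. For CEBPB the lowest lung was at 242 TPM and the highest liver at 261, so the tissues overlapped. CEBPA, a factor of hepatocyte and myeloid genes, differed from both: liver had 54.1 ± 27.7 TPM and heart only 1.63 ± 0.559. Of 14 zinc finger, BTB and Kelch genes 11 were expressed at low levels, led by KLHL9, an adaptor of a ubiquitin ligase, at 25.6 ± 6.35 TPM in spleen.

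Several of the highest named levels belonged to genes of under 1000 exon bases. MTLN encodes mitoregulin, a small protein of the inner mitochondrial membrane, in 171 bases of exon on chromosome 3. It had 297, 372 and 446 TPM (lowest, median and highest) in heart, and its next tissue, kidney, had 115, 186 and 225, so all hearts stood above all kidneys. H2AJ, an H2A variant whose mRNA unlike that of most histones is made outside cell division, had 392, 431 and 559 TPM in kidney and 300, 359 and 478 in liver. These ranges overlapped, and both lay above the highest lung at 144 TPM. SF3B5, a splicing factor subunit, averaged 176 ± 43.8 TPM in kidney (SD, n = 8).

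LDHB was the second highest named gene of the heart by its mean and had an unusual spread between animals. LDHB encodes the heart form of lactate dehydrogenase, and the single-exon copy lies on chromosome 2 (12988755 to 12990035, susScr11). In heart the animals BS1 to BS4 had 0.594, 115, 87.4 and 224 TPM, and DSE1 to DSE4 had 221, 247, 229 and 222. Animal BS1 was near 0 in every tissue: the kidney had 0.288 TPM, the liver 0.211, the lung 0 and the spleen 0.0395. The lowest of the other 7 animals in these tissues had 40.7, 17.4, 21.1 and 18.4 TPM.

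The RefSeq table of the same assembly lists a second LDHB gene on chromosome 5, where the annotation has an unnamed 8-exon gene (ENSSSCG00000000576, 51810943 to 51831218). This 8-exon gene was at 2866 TPM in the heart of BS1, the highest heart of the 8, and at 2141 to 2767 in the others. In lung it had 383 TPM in BS1 and 363 to 493 in the others. The near-0 values of BS1 were thus at the single-exon gene and not at the 8-exon gene. Over the 5 tissues the single-exon level was 7.78% to 10.7% of the 8-exon level in DSE animals. It was 3.77% to 12.3% in BS2 to BS4 and at most 0.0266% in BS1. How reads were divided between the copies is not given in the sources used here. The 4 other single-exon genes in which an animal had under 10% of the median animal in every tissue with a median of at least 1 TPM were ENSSSCG00000032624, ENSSSCG00000059241, NCBP2AS2 and ENSSSCG00000060961. These 4 differed from LDHB. NCBP2AS2 and ENSSSCG00000060961 were at 0 in all DSE lungs, and ENSSSCG00000032624 had at most 0.921 TPM there. ENSSSCG00000059241, of 222 bases, had tissue medians of at most 3.03 TPM. The 5 were found among 217 single-exon genes with such a median in 3 or more tissues (2.30%), against 0.0504% of the multi-exon genes. That share thus includes differences between the pig groups and genes at low levels. This search was added after the values of LDHB were seen.

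A pair of unnamed genes exceeded all named ones. ENSSSCG00000056610 and ENSSSCG00000055221 lie on an unplaced scaffold beside a gene annotated as 5.8S ribosomal RNA. ENSSSCG00000056610 had 550, 2227 and 8846 TPM (lowest, median and highest) in heart and 1284, 3588 and 23344 in lung. The spread between libraries of 1 tissue exceeded 10-fold in both. The pair moved the share of non-mitochondrial TPM that fell on single-exon genes. This share was 2.24% ± 1.1 in lung (SD, n = 8) with the pair and 1.08% without it, and 2.0% ± 0.79 against 0.890% in kidney. ENSSSCG00000050689, an unnamed gene of 420 bases on chromosome 6, took most of it in liver, where the share was 3.76% ± 1.1.

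Tissue-enriched genes were those at least 4-fold above each of the other 4 tissues with the largest of the 4 adjusted p under 0.05, by limma on log2(TPM + 1) over all 16481 genes that passed the filter. Heart had 6 such single-exon genes (1.75% of all genes tested met the rule there), kidney 9 (2.56%), liver 6 (2.2%) and lung 10 (2.64%), and spleen had 19 (1.48%). With median-ratio scaling heart had 13 and lung 5. The mean log2 size factors of that scaling were -0.65 (heart), 0.25 (kidney), -0.75 (liver), 0.65 (lung) and 0.42 (spleen). Dividing by them raised heart and liver against the other tissues. On unscaled TPM, together 50 of the 411 expressed single-exon genes, or 12.2%, met the rule in a tissue, near the 10.6% of all genes. In spleen the share was 4.62% against 1.42% of multi-exon genes, and in the other tissues it stood at 1.46% to 2.43% against 1.80% to 2.76%.

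**Figure D3:**
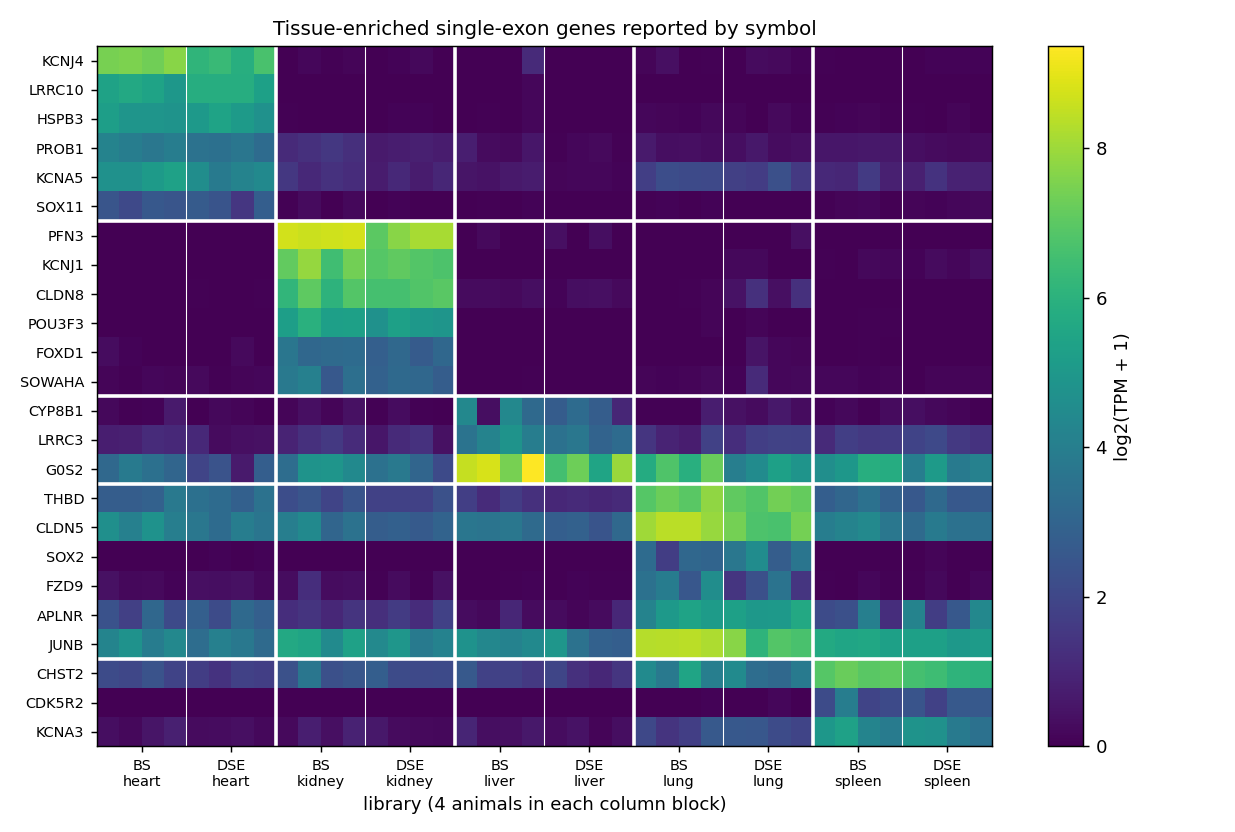
Level of single-exon genes with a symbol that met the tissue-enriched rule (rows, grouped by tissue) in each of the 40 libraries (columns, 4 animals a block), as log2(TPM + 1) by colour. In the heart block KCNJ4 is brighter in BS than in DSE animals, and the kidney genes PFN3, KCNJ1 and POU3F3 are dark in all other tissues.

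Heart genes included potassium channels and muscle proteins. KCNJ4, an inwardly rectifying potassium channel, had 56.9, 131 and 209 TPM (lowest, median and highest) in heart and at most 1.17 elsewhere, a log2 difference of 6.73 ± 0.17 (SE) from lung, the next tissue (limma, adjusted p = 4.26e-30). LRRC10, a leucine-rich repeat protein of cardiac muscle, had 29.7, 45.8 and 56.6 TPM in heart and at most 0.134 elsewhere (log2 difference 5.51 ± 0.08, adjusted p = 6.03e-38). Both had heart ranges far above those of all other tissues. HSPB3, a small heat shock protein of muscle, had 25.5, 30.1 and 41.8 TPM, and its next tissue never exceeded 0.185 (4.88 ± 0.07, adjusted p = 3.25e-38). KCNA5, a voltage-gated potassium channel of the atrial action potential, had 13.2, 24.4 and 39.9 TPM against 1.93 to 3.84 in lung. PROB1 averaged 12.5 ± 2.82 TPM (SD, n = 8) in heart and 1.08 ± 0.473 in kidney.

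Kidney genes included a channel and a claudin of the tubule. PFN3, a profilin, had 129, 340 and 430 TPM in kidney and at most 0.311 elsewhere, the largest difference of the set (log2 8.11 ± 0.14, limma adjusted p = 1.87e-35). It lies 1734 bases from SLC34A1, a kidney tubule marker that averaged 890 TPM in kidney and 0.111 in spleen, its next tissue. Whether reads of SLC34A1 were counted to PFN3 was not tested. KCNJ1, the ROMK channel that secretes potassium into the tubule, had 88.5, 127 and 236 TPM in kidney and was listed at 0 in every heart and liver. CLDN8, a claudin of the collecting duct, had 65.2, 105 and 130 TPM against at most 1.47 in lung. POU3F3, a factor of nephron development, had 25.4, 37.5 and 59.9 TPM and at most 0.106 elsewhere. The kidney values of these genes lay apart from every other tissue. The unnamed ENSSSCG00000058738 averaged 10.3 ± 5.90 TPM in kidney and was at 0 in all other libraries. It lies inside AQP2, the water channel of the collecting duct, on the opposite strand.

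In liver, the unnamed ENSSSCG00000050689 led with 12826, 22822 and 43973 TPM (lowest, median and highest), against a lung mean of 380 ± 342 (SD, n = 8; log2 difference 6.39 ± 0.57, limma adjusted p = 2.54e-12). It lies on chromosome 6 (14984773 to 14985192) on the opposite strand inside ENSSSCG00000002749, which itself averaged 36393 TPM in liver, and without strand in the counting their reads cannot be told apart. G0S2, an inhibitor of fat breakdown, had 43.4, 210 and 659 TPM in liver and 15, 46.6 and 150 in lung (2.13 ± 0.33, adjusted p = 1.11e-06). Its liver and lung ranges overlapped, and liver was higher on average. LRRC3, a leucine-rich repeat protein, had 6.81, 11.5 and 27.0 TPM in liver and at most 3.21 in spleen.

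Lung genes included markers of endothelium. CLDN5, the claudin of endothelial junctions, had 102, 206 and 338 TPM in lung and at most 26.4 in heart (log2 difference 3.61 ± 0.16, limma adjusted p = 6.31e-21). THBD, the thrombomodulin that keeps blood vessels free of clots, had 111, 138 and 222 TPM in lung and at most 13 in heart (4.0 ± 0.15, adjusted p = 2.25e-23). The summed TPM of the endothelial markers PECAM1, CDH5, VWF and TIE1 was 654 to 1093 in lung and at most 394 in other tissues, and its part in these differences was not tested. APLNR had 17.0, 33.1 and 49.4 TPM in lung against 1.35, 4.41 and 19.9 in spleen, and 2 spleens lay above the lowest lung. JUNB, an AP-1 factor induced by many stimuli, had 68.0, 251 and 336 TPM in lung and at most 51.3 in spleen.

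Spleen had 3 enriched genes with a symbol and 16 without. CHST2, a sulfotransferase that makes ligands for lymphocyte homing receptors, had 64.2, 108 and 150 TPM in spleen and at most 43.4 in lung (log2 difference 2.60 ± 0.21, limma adjusted p = 3.44e-13). KCNA3, the Kv1.3 channel of lymphocytes, had 10.3, 21.7 and 40.5 TPM in spleen and at most 5.13 in lung (2.29 ± 0.19, adjusted p = 1.31e-12). For both, every spleen was above every other library. Of the 16 unnamed genes, 8 lay on unplaced scaffolds and 3 on chromosome 7 between DAD1 and TRAV6, a variable segment of the T cell receptor. ENSSSCG00000041880, the highest at 1394, 6661 and 10144 TPM, lies on chromosome 14 between SLC5A4 and ZNF280B. It overlaps other unnamed genes on both strands. The B cell marker sum was 276 to 727 TPM in spleen and at most 83.4 elsewhere, and its part in these values was not tested.

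Genes lower in a tissue than in each of the others by the mirror rule were 7 in heart (0.728% of all genes tested met it) and 1 in liver (0.746%). In kidney, lung and spleen limma called 0, beside 0.0728%, 0.0121% and 0.146% of all genes, and at an unadjusted p under 0.05 there were 8, 1 and 3 lower than every other tissue but none at 4-fold. CEBPA was the only heart-depleted gene with a symbol, with 0.805, 1.69 and 2.53 TPM in heart against 7.59, 10.2 and 13.8 in kidney, the next lowest tissue (log2 difference -2.11 ± 0.20, limma adjusted p = 9.58e-12). Every heart was below every other library. The other 6 genes depleted in heart had no symbol, and ENSSSCG00000041880 was among them. The unnamed ENSSSCG00000004656, inside SHC4 on the opposite strand, averaged 3.21 ± 0.999 TPM in liver and 19.1 ± 3.41 in heart, the next tissue (SD, n = 8).

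Expressed single-exon genes that lie wholly inside a multi-exon gene followed it to different degrees. Across the 5 tissue means the median Pearson correlation with the host was 0.93 over 17 genes on the same strand and 0.64 over 52 on the opposite strand. The tissue of the highest mean was shared by 12 of the 17 and 23 of the 52. These are descriptions over 5 points, and the 2 genes of a pair may share reads.

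Between the pig groups, a larger share of the single-exon genes than of all genes was called higher in BS. Calls needed a 2-fold difference on log2(TPM + 1) and an adjusted p under 0.05 by limma, on 4 against 4 animals in each tissue, among genes whose mean in a pig group was 1 TPM or above. In heart 27 of 224 single-exon genes that passed this filter were higher in BS (2.17% of all genes tested) and 1 in DSE (0.415%). In kidney 40 of 283 were higher in BS (3.09%) and 3 in DSE (1.39%). In liver 28 of 221 were higher in BS (2.72%). None was higher in DSE (0.642% of all genes), where 17 were lower in BS at an unadjusted p under 0.05 and 1 of these by 2-fold.

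In lung 57 of 375 were higher in BS (2.69% of all genes) and 9 in DSE (6.36%), or 16 in DSE without animal BS4. In spleen 30 of 322 were higher in BS (1.42%) and 5 in DSE (1.56%). Without genes that overlap another gene 19 of 246 were higher in BS there, or 7.72% against 9.32% with them. On the mean over the 5 tissues of each animal, 29 of 411 were higher in BS (1.04%). Without overlapping genes 17 of 323 were, or 5.26% against 7.06% with them. Of the 411, none was higher in DSE (0.376% of all genes), with 63 lower in BS at an unadjusted p under 0.05 and 0 of these by 2-fold. The share called higher in BS was 9.32% to 15.2% of the single-exon genes within tissues, against 1.17% to 2.85% of multi-exon genes. Groups of genes were not tested against each other.

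Summed markers of cell types also separated the pig groups in some tissues. The summed TPM of 4 hepatocyte genes was 50268 to 66795 in BS livers and 66967 to 104838 in DSE livers. That of 4 kidney tubule genes was 4943 to 8480 in BS kidneys and 3742 to 4411 in DSE kidneys, and 4 macrophage genes summed to 18.75 to 41.2 and 11 to 18.67 there. The 4 heart muscle genes summed to 33125 to 39277 in BS hearts and 28288 to 32469 in DSE hearts. None of these ranges overlapped, and their part in the differences between the pig groups was not tested. The highest genes weigh most in such sums, as ALB does in liver (means of 47448 in BS and 68134 in DSE). Against their sums, MYL2 averaged 10776 TPM in BS hearts and 11739 in DSE hearts, and APOA1 averaged 5568 in BS livers and 5179 in DSE livers. The kidney tubule gene SLC34A1 differed little, at 913 in BS and 868 in DSE kidneys.

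The median difference, BS minus DSE on the log2 scale, was 0.31 (heart), 0.36 (kidney), 0.38 (liver), 0.15 (lung) and 0.19 (spleen). Over all genes tested the medians were 0.03, -0.02, 0.04, -0.21 and -0.11. Of 168 single-exon genes tested in all 5 tissues, 76 (45.2%) had a difference above 0 in each tissue and 24 (14.3%) below 0, against 29.1% and 36.8% of the multi-exon genes. The log2 size factors of median-ratio scaling, BS minus DSE, were -0.25 in lung and -0.14 in spleen and within 0.04 of 0 in the others, so that dividing by them raised BS against DSE in lung and spleen. Under it 67 genes in lung and 39 in spleen were higher in BS, and 5 and 3 in DSE. Without mitochondrial genes 26 in heart and 26 in liver were higher in BS.

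**Figure D4:**
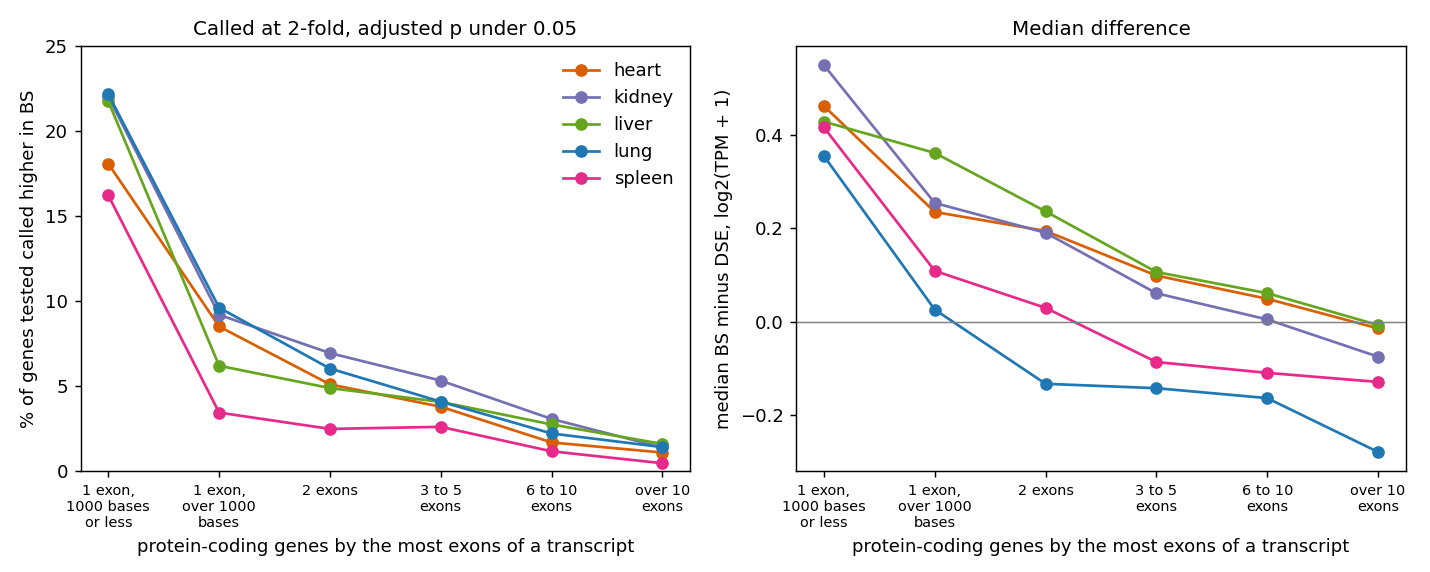
Protein-coding genes grouped by exon number, with single-exon genes split at 1000 exon bases: share called higher in BS (left) and median BS minus DSE difference in log2(TPM + 1) (right), with 1 line per tissue. Within each tissue the shortest single-exon genes have the highest share, 16.2% to 22.2%, and genes with over 10 exons the lowest, 0.472% to 1.61%.

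Gene length moved with this difference. Single-exon genes of at most 1000 exon bases were called higher in BS in 18.1% (heart), 22% (kidney), 21.7% (liver), 22.2% (lung) and 16.2% (spleen) of cases. Longer ones were called in 8.51%, 9.20%, 6.20%, 9.62% and 3.45%. Multi-exon genes of at most 1000 bases stood at 8.47%, 7.82%, 6.21%, 6.74% and 7.35%, and longer ones at 1.66%, 2.64%, 2.37%, 2.15% and 0.876%. On either side of 1000 bases the single-exon share was the higher in every tissue. Lengths still differ within these classes, and the part of length in the difference was not tested. Single-exon genes without a coding line had medians below 0 in every tissue, from -0.07 in heart to -0.49 in lung.

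Of 460 single-exon genes tested in some tissue, 91 were higher in BS in at least 1 (19.8%, against 6.05% of all genes) and 17 in DSE (3.70%, against 7.58%), and none was called in both directions. Of the 91, 54 had a symbol, 57 had at most 1000 exon bases and 22 overlapped another gene. In 65 of them (71.4%, against 81.1% of all genes higher in BS) the animals of the groups did not overlap in any tissue where the gene was called, and this held for 11 of the 17 higher in DSE (64.7%, against 82.0% of all such genes). In 1 tissue 49 were called (53.8%, against 66.2% of all genes higher in BS), 16 in 2, 10 in 3, 9 in 4 and 7 in all 5 (7.69%, against 3.03%). The 7 are TMEM238, SLC35A4, INAFM2, MARVELD1, G0S2, ENSSSCG00000032624 and ENSSSCG00000063463, and those beyond the naming rule were chosen after their values were seen.

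**Figure D5:**
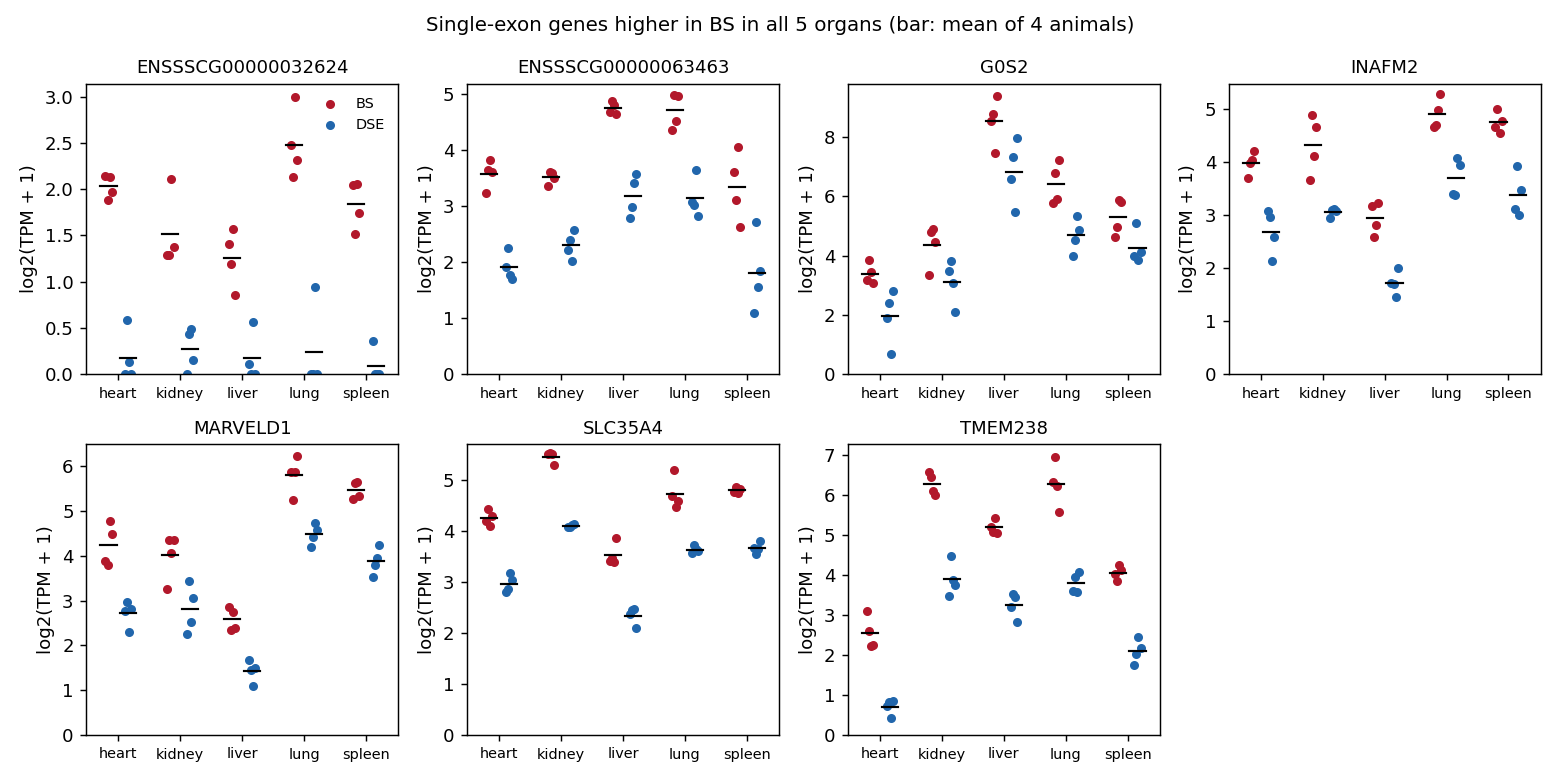
Level of the 7 single-exon genes called higher in BS in all 5 organs, as log2(TPM + 1) in each animal (points, red for BS and blue for DSE), with the mean of 4 animals as a bar. In TMEM238, SLC35A4, INAFM2 and ENSSSCG00000032624 the groups do not overlap in any organ, while in G0S2 they overlap in kidney, liver and spleen.

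TMEM238, a small membrane protein on chromosome 6 (59554323 to 59554859), had the largest difference over tissues after NCBP2AS2. In kidney BS animals had 94.7, 85.9, 67.6 and 63.5 TPM and DSE animals 10.1, 21.4, 13.8 and 12.5 (log2 difference 2.38 ± 0.22, SE, limma adjusted p = 0.0012). In heart, at lower levels, BS animals had 7.62, 5.07, 3.67 and 3.73 and DSE animals 0.657, 0.753, 0.350 and 0.785 (1.84 ± 0.20, adjusted p = 0.00049). In each of the 5 tissues all BS animals were above all DSE animals.

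SLC35A4, a nucleotide sugar transporter family member, was called at differences of 1.1 to 1.35. In kidney BS animals had 44.4, 44.8, 44.3 and 38.0 TPM and DSE animals 15.9, 15.8, 16.4 and 16.4 (1.35 ± 0.10, limma adjusted p = 0.00061). The groups did not overlap in any tissue, and SLC35A4 overlaps an unnamed gene on the same strand. INAFM2, a small membrane protein, had 11.9, 14.8, 15.4 and 17.6 TPM in BS hearts and 7.38, 6.76, 3.41 and 4.98 in DSE hearts. MARVELD1, a protein of the MARVEL membrane domain family, had 37.5, 48.1, 49.6 and 39.5 TPM in BS spleens and 10.6, 12.8, 14.5 and 17.9 in DSE spleens. Both had the higher mean in BS in every tissue, although MARVELD1 overlapped between the groups in kidney, at 8.64 TPM in BS1 and 9.82 in DSE2.

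G0S2 had 368, 441, 174 and 659 TPM in BS livers and 94.7, 158, 43.4 and 247 in DSE livers (log2 difference 1.70 ± 0.55, limma adjusted p = 0.049). The groups overlapped in that tissue, and the adjusted p of G0S2 was also just under the threshold in kidney (0.049) and spleen (0.046). The call of G0S2 was lost in 9 of 14 alternative settings in liver, 9 in kidney, 8 in spleen and 2 in heart, with an adjusted p of up to 0.116, and in none in lung. ENSSSCG00000032624, 2796 bases on chromosome 5, was low throughout, with 4.55, 3.38, 6.95 and 3.97 TPM in BS lungs and 0, 0, 0.921 and 0 in DSE lungs. ENSSSCG00000063463 had 24.5, 28.3, 26.9 and 24 TPM in BS livers and 5.89, 6.88, 9.67 and 10.8 in DSE livers. Its groups overlapped in spleen, at 5.13 TPM in BS4 and 5.59 in DSE2, and it lies inside C7orf50 on the opposite strand.

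Histones, matched by symbol, made up 9 of the 91 genes higher in BS. Genes without a symbol could not be matched and count among the other single-exon genes. Of the 14 single-exon histones tested in lung 9 were higher in BS and none in DSE, with a median difference of 1.41. There 13.3% of the other single-exon genes and 2.69% of all genes were higher in BS. Heart had 2 of 4 (median 0.87), kidney 4 of 8 (1.29), liver 2 of 7 (0.35) and spleen 4 of 10 (1.17), where the other single-exon genes stood at 11.4%, 13.1%, 12.1% and 8.33%. H2AC6, a replication-dependent H2A gene, had 82.4, 41.6, 180 and 222 TPM in BS lungs and 2.80, 3.68, 3.99 and 2.15 in DSE lungs (4.74 ± 0.47, SE, limma adjusted p = 0.0013). H2AX, the variant phosphorylated at DNA breaks, had 31.5, 27.3, 29.7 and 30.0 TPM in BS kidneys and 10.2, 10.4, 5.13 and 11.4 in DSE kidneys (1.62 ± 0.21, adjusted p = 0.002). H1-10, a linker histone variant, had 265, 318, 339 and 334 TPM in BS lungs and 142, 122, 117 and 142 in DSE lungs (1.26 ± 0.12, adjusted p = 0.0011). No BS animal overlapped a DSE animal in these 3 comparisons. H2AC25 had 24.2, 14.6, 83.5 and 76.7 TPM in BS lungs against 0.848 to 2.56 in DSE lungs, and it overlaps H2BC26 on the opposite strand. Histone copies are alike, so the assignment of reads among them is uncertain.

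Of the 8 immediate early and CEBP factors, 3 were higher in BS for heart, 2 for kidney, 1 for liver, 4 for lung and 1 for spleen, and none in DSE. Of all single-exon genes tested, 12.1%, 14.1%, 12.7%, 15.2% and 9.32% were higher in BS in these tissues, and of all genes 2.17%, 3.09%, 2.72%, 2.69% and 1.42%, so 1 of 8 in liver or spleen is near the share of single-exon genes. The liver call, CEBPA, was lost in 10 of 14 alternative settings, with an adjusted p of up to 0.119 (limma). CEBPD had 65.8, 125, 76.1 and 90.6 TPM in BS hearts and 19.5, 55.2, 15 and 24.3 in DSE hearts (1.75 ± 0.35, SE, limma adjusted p = 0.0056). CEBPB had 546, 560, 616 and 632 TPM in BS lungs and 275, 242, 378 and 268 in DSE lungs (1.03 ± 0.14, adjusted p = 0.0027). JUNB had 317, 328, 336 and 296 TPM in BS lungs and 205, 68.0, 116 and 101 in DSE lungs (1.49 ± 0.28, adjusted p = 0.0056). The groups stood apart in all 3 cases. The median differences of the 8 factors ran from 0.33 in spleen to 0.90 in lung. Those of the zinc finger, BTB and Kelch genes ran from -0.08 in heart to -0.41 in lung, where all genes tested had -0.21. Of these zinc finger, BTB and Kelch genes, 1 of 11 was higher in BS in lung and 1 of 11 in spleen, and none in DSE.

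Other genes higher in BS differed in kind. NCBP2AS2, a small protein gene on the opposite strand inside NCBP2, had 14.7, 9.12, 3.99 and 6.49 TPM in BS hearts and was listed at 0 in all 4 DSE hearts. In lung it had 15, 21.2, 8.91 and 5.68 TPM in BS and was again at 0 in all DSE animals, while in liver only DSE3 was at 0. PHLDA3, an inhibitor of AKT signalling induced by p53, had 19.5, 29.9, 18.9 and 36.5 TPM in BS livers and 1.93, 7.11, 5.87 and 5.08 in DSE livers (log2 difference 2.22 ± 0.33, SE, limma adjusted p = 0.0038). KCNJ4 had 173, 180, 161 and 209 TPM in BS hearts and 69.2, 80.6, 56.9 and 100.3 in DSE hearts (1.25 ± 0.16, adjusted p = 0.00097). CLDN5 had 261, 337, 338 and 241 TPM in BS lungs and 171, 106, 102 and 169 in DSE lungs, while the endothelial marker sum overlapped there, at 800 to 1093 and 654 to 973. HSPA6, an inducible heat shock 70 gene, ranged from 10.2 to 287 TPM in BS lungs and from 2.73 to 6.10 in DSE lungs (3.40 ± 0.80, adjusted p = 0.012). On the same strand it overlaps a joint gene identifier that includes its own and averaged 2.97 TPM in lung. How reads were divided between these 2 entries is not given. HSPA6 also resembles other heat shock 70 genes.

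Of the 17 genes higher in DSE, 9 were called in lung. FIBIN, a secreted protein, had 7.72, 12.4, 11.9 and 25 TPM in BS lungs and 47.1, 36.7, 69.5 and 32.1 in DSE lungs (log2 difference -1.69 ± 0.34, SE, limma adjusted p = 0.0071). FZD7, a Wnt receptor, had 6.05, 4.89, 5.54 and 6.82 TPM in BS lungs and 18.2, 14.6, 10.04 and 10.9 in DSE lungs (-1.05 ± 0.20, adjusted p = 0.0056). Neither overlapped between the groups. NBDY, a small protein of the mRNA decapping complex, was listed at 0 in all BS lungs and averaged 2.99 TPM in DSE lungs. IFN-ALPHA-17 likewise was at 0 in all BS lungs. ENSSSCG00000032146, on chromosome 7, was the only one of the 17 called in 2 tissues, with differences of -1.08 ± 0.14 in lung and -1.05 ± 0.17 in spleen. The pair beside the 5.8S gene was called in kidney (-1.39 and -1.27), where the groups overlapped, and without the pair only 1 gene remained there.

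For 50 of the 411 single-exon genes (12.2%, against 8.04% of all genes) the difference between BS and DSE varied between tissues, by an interaction F test in limma, added after the data were seen, which treats the libraries of an animal as independent. H2AC6 differed by 0.35 ± 0.36 in liver and by 4.74 in lung (interaction adjusted p = 0.000958). TMEM238 did not meet the threshold of the interaction test, which does not show that its differences are equal.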

How the data were processed

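RNA of 8 pigs was measured in 5 tissues. The TPM values were deposited by the authors per gene, and the submitters' processing notes name STAR 2.7.10a, Salmon 1.10.1 and the build susScr11, without saying which tool made the table or whether strand was used. The long-read values are full-length read counts per transcript, deposited by the authors, with 119623 to 456783 reads in a library. Columns with a code that matches no label (20 of TPM and 5 of full-length counts) were not used, and the animals labelled DT are not analysed here.

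Genes whose mean in a compared group was 1 TPM or above were tested on log2(TPM + 1) with limma 3.58.1 (R 4.3.3, variance trend, Benjamini-Hochberg adjustment over all genes tested). Tissues were compared over 40 libraries and pig groups within each tissue, on 8 libraries, or on the mean of each animal over tissues. Fold changes on this scale understate those of low genes. Libraries of 1 animal correlated with a median of 0.126 across tissues (over 0.1 in 49 of 80 pairs), and the fit with the animal as a block gave the same tissue counts. On simulated data the tissue rule recovered 199 of 200 genes changed 8-fold in kidney among 14539 tested, and the pig group rule 186 of 200 genes changed 4-fold in heart among 14364, with 7 false calls. The changed genes were drawn from those above a set mean level, and unchanged genes had the same level in all tissues. Simulated libraries of an animal were independent. Recovery of lower genes, among them many single-exon genes, was thus not tested.

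Named genes were, among those with a symbol, the 5 most enriched with a mean from 10 TPM up, the 5 highest and the 2 most depleted of each tissue, up to 4 a direction for the pig groups (means from 5 TPM up, animals not overlapping), and up to 4 of each of 20 families. Unnamed genes appear where they lead a ranking, and 4 genes that met the rule are not reported here. Genes, lists and rules were chosen with earlier results of these data known. Alternatives were another pseudocount, no filter, median-ratio scaling, removal of mitochondrial genes, removal of overlapping genes, a replicate block, a fit over all libraries and leaving out each animal. The interaction test and the removal of the pair beside the 5.8S gene were added after the data were seen.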

Additional observations from a re-analysis of the deposited data

Results flagged for a closer look

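Of 125 groups of 4 or 8 libraries tested, 11 had a library that stood apart from the rest by Dixon's criterion, and chance flags about 1 in 20 groups. The share of TPM on single-exon genes was 2.90% in the DSE4 heart, where the next heart had 1.57%, and 4.86% in the DSE2 lung, where the next lung had 2.45%. The same 2 libraries stood apart for the pair beside the 5.8S gene: ENSSSCG00000056610 had 8846 TPM in the DSE4 heart and 23344 TPM in the DSE2 lung, and ENSSSCG00000055221 had 12985 TPM in the DSE2 lung. POU3F3 was at 59.9 TPM in the BS2 kidney, above the next kidney at 39.2. NCBP2AS2 had 5.26 TPM in the DSE1 spleen and 0 in the other 3 DSE spleens. H2AC6 had 10.5 TPM in the DSE4 kidney, where the next DSE kidney had 2.05. H2AC4 had 0.430 TPM in the DSE4 lung and 0 in the other 3. ENSSSCG00000052498 had 3.20 TPM in the BS4 lung, the highest of BS, and 22.6 TPM in the DSE2 lung, the highest of DSE.

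For 12 of 102 named genes the difference between BS and DSE varied between tissues by limma's interaction F test. Of the 411 expressed single-exon genes 12.2% met this threshold, and of all genes 8.04%, so the named genes stood near the share of single-exon genes. The adjusted p was 0.00863 for FAM43B, 0.0253 for FIBIN and 0.0276 for FZD7. Among histones it was 0.000958 for H2AC6, 0.00064 for H2AC25 and 0.0119 for H2AC20. Among genes without a symbol it was 0.000174 for ENSSSCG00000042004, 0.000627 for ENSSSCG00000060961, 0.00153 for ENSSSCG00000057447, 0.00684 for ENSSSCG00000062009, 0.00942 for ENSSSCG00000052498 and 0.0248 for ENSSSCG00000032146.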

How the results depend on the processing

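No recomputed difference of a named gene changed its direction. Among named genes, 1260 of the recomputed pig group results stayed on their side of the threshold and 163 lost the call, and of the tissue results 384 and 6. The number of single-exon genes detected in a library depended on the level required. At 0.1 TPM it was 384.6 (heart), 458.1 (kidney), 369.9 (liver), 538.1 (lung) and 498.8 (spleen), and at 5 TPM it was, in that order, 101, 158.5, 95.8, 185.1 and 172.1. Without overlapping genes it was 164, 201.3, 157.3, 250.5 and 221.3. Without mitochondrial genes it was 239.8 in heart and 276 in kidney.

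Without overlapping genes 17 of 323 were higher in BS over tissues and 19 of 246 in spleen. The share of TPM on the remaining genes was 0.876% in liver and 1.44% in spleen, and 0 were depleted in liver. Without the pair beside the 5.8S gene the share was 0.890% in kidney and 1.08% in lung, and 1 gene was higher in DSE in kidney. The counts higher in DSE were small. With median-ratio scaling they were 2 (heart), 0 (kidney), 1 (liver), 5 (lung) and 3 (spleen), and without a filter 0 in heart, 1 in kidney and 3 in spleen. With a pseudocount of 0.5 they were 2 in heart and 1 in liver, and without mitochondrial genes 2 in heart and 6 in kidney. Median-ratio scaling gave 13 enriched in heart and 5 in lung, with 1 depleted in kidney and 0 in liver. Depleted genes in liver were 2 with a pseudocount of 0.5 and 2 without mitochondrial genes.

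Leaving out each animal gave 0 to 2 genes higher in DSE in heart, 1 to 4 in kidney (1 without BS2 or DSE3), 0 to 1 in liver, 8 to 16 in lung (16 without BS4) and 3 to 6 in spleen. BS and DSE animals of the same number shared only the number, with a correlation over 0.1 in 0 of 20 pairs. With the number as a replicate block, 30 genes for heart, 44 for kidney, 27 for liver, 50 for lung and 29 for spleen were higher in BS, and 1, 3, 0, 7 and 6 in DSE. Named calls lost under the block were CEBPA in liver (adjusted p = 0.0675) and G0S2 in kidney (0.0649) and spleen (0.0722). TPM keeps no depth, so the counting error of low genes is unknown.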
